A study of Mus musculus with 25 samples.

Results

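The genes described here are those of the phagocyte NADPH oxidase, *Cybb*, *Cyba*, *Ncf1*, *Ncf4* and *Rac2*, together with *Nox4*, the oxidase gene of the same family that is known from adipocytes and connective tissue cells. They were chosen by symbol, as 6 of the 54752 genes counted in each library. All 6 passed the filter on low counts in both fat depots. The libraries came from epididymal (eWAT) and inguinal (iWAT) white adipose tissue of male C57BL/6N mice, and each depot held 3 groups. Wild type (WT) mice were kept on normal chow diet (ND), with 4 eWAT and 3 iWAT libraries. WT mice on high-fat diet (HFD), which took 60% of calories from fat and started at 5 weeks of age, gave 5 libraries in each depot. *Acod1*-/- mice on the same HFD gave 5 eWAT and 3 iWAT libraries. *Acod1* encodes the enzyme that makes itaconate, the knockout is the em1 allele of the Jackson Laboratory on C57BL/6N, a constitutive knockout, and littermates served as controls. The labels give a time of 16 weeks, except for 17 and 18 weeks at *Acod1*-/- iWAT libraries 2 and 3. *Acod1*-/- mice on ND were not analysed here, so the knockout was compared on HFD and not on chow.

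The phagocyte oxidase moves electrons from NADPH in the cytosol across a membrane onto oxygen, which yields superoxide for killing of microbes and for signalling. *Cybb* encodes gp91phox, the catalytic subunit that carries heme and flavin, and *Cyba* encodes p22phox, its membrane partner. p47phox (*Ncf1*) and p40phox (*Ncf4*) wait in the cytosol and join the membrane pair after activation, together with the small GTPase Rac2. NOX4, by contrast, needs p22phox but not the cytosolic subunits, is active as it is made, and releases mainly hydrogen peroxide. In fat, the phagocyte subunits are known from macrophages and other white blood cells, B cells included.

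Reads counted on genes came to 31.41 M in the shallowest library and 52.34 M in the deepest, with a median of 42.09 M. Levels are given as CPM (counts per 1000000 counted reads, with library sizes scaled by edgeR's TMM normalization). Adipocyte marker genes summed to between 19422 and 50980.4 CPM in the libraries, so the labelled tissue was marked in each of them. *Acod1* itself did not serve as a check of genotype, since its highest count in a library was 9 in WT and 2 in *Acod1*-/- mice. Numbers in the column headers of the files fall into 2 ranges, and all 7 ND libraries lie in the second range with 4 HFD libraries. In tissue RNA, fewer cells of a type and less RNA per cell cannot be told apart.

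All members are protein coding genes of mouse genome build GRCm38. *Cybb* (ENSMUSG00000015340) lies on chromosome X from 9435252 to 9487771 and *Cyba* (ENSMUSG00000006519) on chromosome 8 from 122424776 to 122432930, both on the minus strand. *Ncf1* (ENSMUSG00000015950) lies on chromosome 5 from 134220053 to 134229625 on the minus strand. Its exons overlap those of *Gtf2ird2* on the opposite strand, a gene with at most 586 counts in a library, and whether the authors' counting used strand is not given in the sources used here. *Ncf4* (ENSMUSG00000071715, plus strand, 78244801 to 78262580) and *Rac2* (ENSMUSG00000033220, minus strand, 78559167 to 78572783) lie on chromosome 15. *Nox4* (ENSMUSG00000030562) lies on chromosome 7 from 87246096 to 87398710 on the plus strand.

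The promoters of the catalytic genes *Cybb* and *Nox4* are shown because these are the enzymes of the set. The RefSeq table for GRCm38.p6 held promoters of 4 of the 6 members, *Cybb*, *Cyba*, *Ncf1* and *Nox4*. The 250 bases before the RefSeq start site are printed 5′ to 3′ on the gene's strand, at chrX:9469325-9469574 (minus strand) for *Cybb* and chr7:87246399-87246648 (plus strand) for *Nox4*. Capitals mark the letters CCAAT.
Cybb: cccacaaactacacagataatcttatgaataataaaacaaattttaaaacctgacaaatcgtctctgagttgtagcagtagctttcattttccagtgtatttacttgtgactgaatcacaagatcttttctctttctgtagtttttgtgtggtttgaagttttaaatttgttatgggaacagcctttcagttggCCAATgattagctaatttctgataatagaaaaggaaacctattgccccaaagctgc
Nox4: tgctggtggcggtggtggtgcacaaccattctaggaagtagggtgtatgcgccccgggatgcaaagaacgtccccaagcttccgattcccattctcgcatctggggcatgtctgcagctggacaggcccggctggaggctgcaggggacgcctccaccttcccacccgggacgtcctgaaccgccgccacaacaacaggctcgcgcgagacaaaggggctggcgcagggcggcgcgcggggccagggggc
Over the 300 bases from 250 before to 50 after the start, GC content was 35.3% for *Cybb*, 60.7% for *Cyba*, 54.0% for *Ncf1* and 68.3% for *Nox4*, against a median of 52.7% over 32851 promoters. *Cybb* held 1 CpG in this window and *Nox4* held 24, against a median of 7. Of the 4 promoters, that of *Cybb* alone matched CCAAT, with the first base 56 bases before the start. It alone also matched GAGGAA, 1 form of the site bound by PU.1, and other forms of that site were not searched. Both motifs were searched on both strands. The GAGGAA match lay on the other strand. On the gene's strand its reverse complement began 10 bases after the start, in the stretch ttttcatTTCCTCatcagaa, where capitals mark that reverse complement. CCAAT was held by 37.4% and GAGGAA by 28.3% of all promoters, so a match is common and is given as a description.

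The first question was how HFD and *Acod1* loss went with oxidase gene levels in eWAT, the visceral depot. All 6 members were higher in HFD-fed than in ND-fed WT mice, by 2.51-fold (*Ncf1*) to 6.36-fold (*Cyba*), and all 6 were lower in HFD-fed *Acod1*-/- than in HFD-fed WT mice, by 2.35-fold (*Nox4*) to 4.04-fold (*Cyba*). Both comparisons rest on the same 5 HFD-fed WT libraries. "Higher", "rose", "lower" and "fell" stand for a Benjamini-Hochberg adjusted p under 0.1 in edgeR's quasi-likelihood test over all genes, the rate the study used. On that rule 24.8% of 14936 genes were higher with diet in eWAT, and 10.8% were lower with genotype. The median log2 fold change of the members was 2.28 for diet, beside -0.04 over all genes, and -1.62 for genotype, beside 0.04 over all genes.

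*Cybb* had 48.4, 23.0, 23.0 and 16.2 CPM in the 4 ND-fed WT eWAT libraries, 262, 166, 91.0, 126 and 63.7 CPM in the HFD-fed WT libraries, and 37.9, 18.9, 23.8, 24.4 and 72.3 CPM in the HFD-fed *Acod1*-/- libraries. Every HFD-fed WT library was above every ND-fed library, while *Acod1*-/- library 5 lay above the lowest WT library on HFD. The log2 fold change was 2.36 (SE 0.49, adjusted p = 0.00267) for diet and -2.0 (SE 0.45, adjusted p = 0.0160) for genotype. *Cyba*, the partner without which gp91phox is not stable, had 47.1, 28.4, 28.6 and 22.2 CPM on ND, 341, 185, 133, 216 and 131 CPM in HFD-fed WT mice, and 49.1, 36.4, 37.1, 38.5 and 87.8 CPM in HFD-fed *Acod1*-/- mice. Here the HFD-fed WT libraries stood above all others in the depot. *Cyba* rose by 2.67 on the log2 scale with diet (SE 0.36, adjusted p = 3.19e-04) and fell with genotype (log2 fold change -2.01, SE 0.32, adjusted p = 0.0110).

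*Ncf1*, whose product p47phox organises the assembly once phosphorylated, had the smallest fold change of the phagocyte subunits with diet. It had 26.8, 13.1, 19.2 and 13.6 CPM on ND, 70.7, 39.2, 39.2, 56.4 and 22.4 CPM in HFD-fed WT mice, and 16.9, 7.70, 10.7, 18.2 and 33.4 CPM in HFD-fed *Acod1*-/- mice. HFD-fed WT library 5 lay within the range of the ND-fed group, and *Acod1*-/- library 5 lay within that of the WT mice on HFD. The log2 fold changes were 1.33 (SE 0.41, adjusted p = 0.0198) and -1.39 (SE 0.38, adjusted p = 0.0337). *Ncf4*, whose product p40phox binds phosphatidylinositol 3-phosphate on phagosomes, had 7.14, 5.08, 3.86 and 2.35 CPM on ND, 35.8, 18.4, 15.2, 22.8 and 14.4 CPM in HFD-fed WT mice, and 7.84, 3.68, 3.0, 7.01 and 11.5 CPM in HFD-fed *Acod1*-/- mice. Its HFD-fed WT libraries did not overlap either other group, with log2 fold changes of 2.21 (SE 0.44, adjusted p = 0.00194) and -1.69 (SE 0.40, adjusted p = 0.0182).

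*Rac2*, the GTPase of blood cells that switches the assembled enzyme on, had 9.88, 7.09, 5.70 and 5.93 CPM on ND, 63.6, 36.6, 25.7, 44.6 and 27.2 CPM in HFD-fed WT mice, and 11.7, 11.3, 8.56, 17.2 and 18.2 CPM in HFD-fed *Acod1*-/- mice. The HFD-fed WT group was again apart from both others, with log2 fold changes of 2.47 (SE 0.31, adjusted p = 2.61e-04) and -1.56 (SE 0.28, adjusted p = 0.0110). *Nox4* was low throughout, with 4.67, 1.85, 2.65 and 1.71 CPM on ND, 8.97, 9.22, 5.16, 8.64 and 6.82 CPM in HFD-fed WT mice, and 1.74, 3.95, 3.16, 3.49 and 4.20 CPM in HFD-fed *Acod1*-/- mice. Its HFD-fed WT libraries lay above all others of the depot too, at log2 fold changes of 1.51 (SE 0.34, adjusted p = 0.00403) and -1.23 (SE 0.32, adjusted p = 0.0260).

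**Figure D1:**
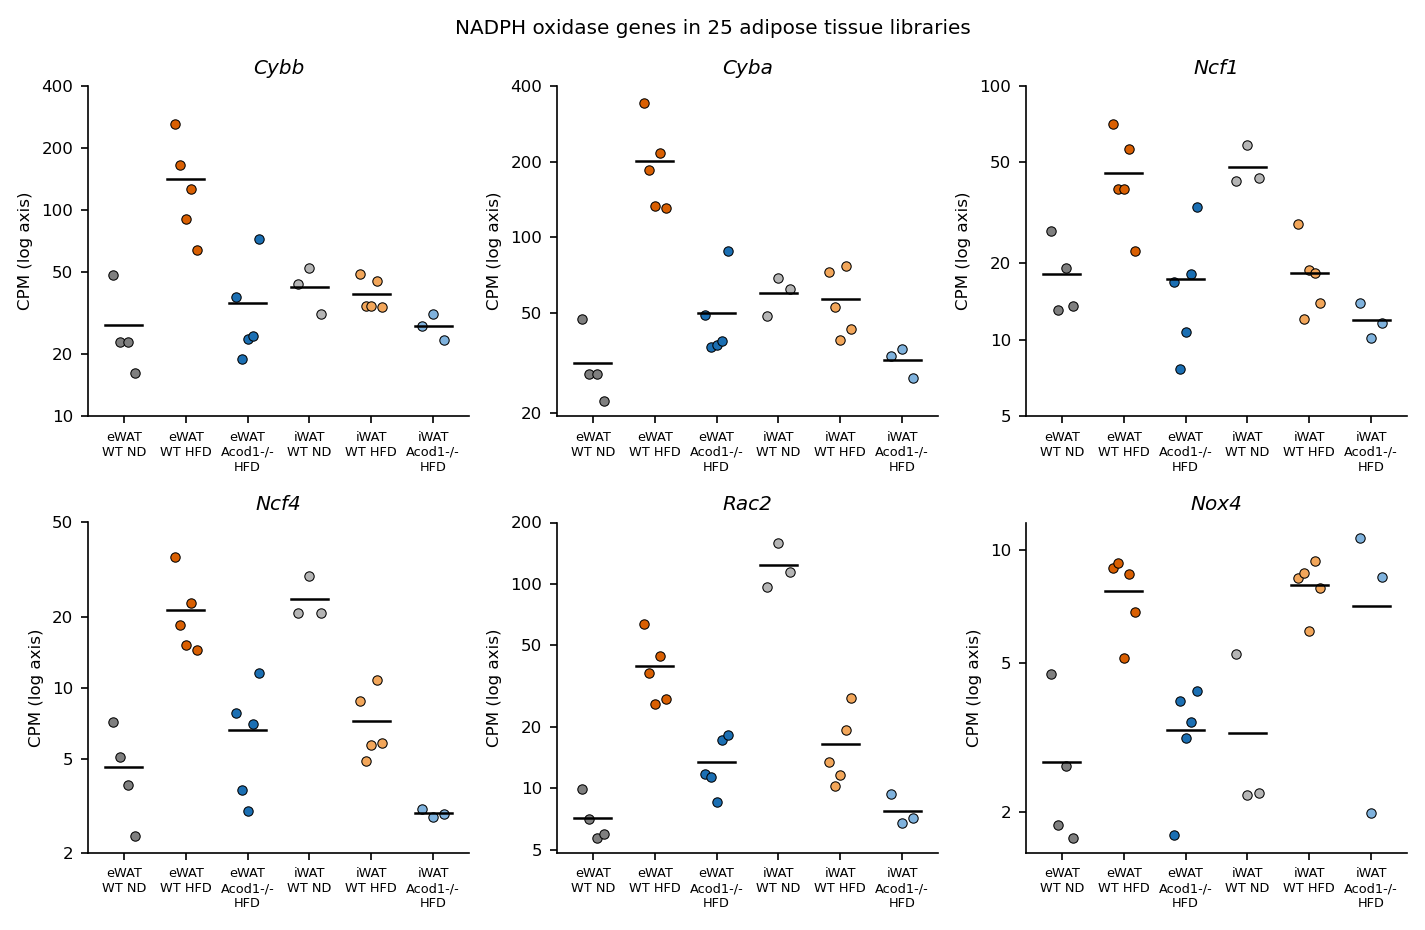
CPM of the 6 genes (log axes that differ between panels) in each of the 25 libraries, by depot and group; points are libraries and bars are group means. *Cybb* and *Cyba* stood out in HFD-fed WT eWAT (means 142 and 201 CPM), and *Rac2* in ND-fed iWAT (mean 123 CPM).

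Counted over the members, 5 of 6 had HFD-fed WT libraries all above the ND-fed ones in eWAT, as did 17.3% of all genes, and 4 of 6 had *Acod1*-/- libraries all below the HFD-fed WT ones, as did 4.37% of all genes. Leaving out each library in turn changed none of these 12 calls. With the header range as a term, all 6 remained higher with diet (adjusted p 0.00286 to 0.0560). In eWAT only 1 HFD-fed WT and 1 *Acod1*-/- library share the range of the ND-fed libraries. Diet and range are thus told apart by these libraries alone. Within the first range alone all 6 remained lower with genotype (log2 fold changes -2.62 to -1.39). HFD-fed *Acod1*-/- eWAT was then set against ND-fed WT eWAT, where 1 member was higher and none was lower, against 13.5% of all genes higher. That member was *Rac2* (log2 fold change 0.90, SE 0.29, adjusted p = 0.0510), and its call was lost without ND-fed library 2, 3 or 4 (adjusted p 0.102 to 0.121) and with the header range as a term (0.183). Intervals for the others were wide: the log2 difference of *Cybb* was 0.36, with a 95% interval of -0.55 to 1.26, and that of *Cyba* 0.66, with an interval of -0.00 to 1.32.

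Macrophage markers moved with the oxidase genes in eWAT. Of 10 markers, 9 rose with diet and 9 fell with genotype, among them *Cd68* (log2 fold changes 3.89 and -2.70) and *Adgre1* (2.87 and -2.48), while *Mertk* fell with diet (-0.99). Their summed level ranged from 533 to 894 CPM on ND, from 1286 to 4098 CPM in HFD-fed WT mice and from 461 to 1349.6 CPM in HFD-fed *Acod1*-/- mice, and none was at or under 3 counts throughout a group. *Acod1*-/- library 5, the highest of its group for *Cybb*, *Cyba*, *Ncf1*, *Ncf4*, *Rac2* and *Nox4*, also had the highest marker sum of that group. Set against 100 CPM of macrophage markers, *Cybb* stood at 3.99 ± 1.11 CPM on ND (SD, n = 4), 5.23 ± 1.09 in HFD-fed WT mice (n = 5) and 4.47 ± 0.752 in *Acod1*-/- mice (n = 5). These ranges overlapped, as they did for *Ncf4* (0.683 ± 0.236, 0.839 ± 0.204 and 0.843 ± 0.165 CPM) and *Nox4* (0.390 ± 0.0923, 0.325 ± 0.123 and 0.499 ± 0.252 CPM). *Cyba* was higher on this scale in HFD-fed WT mice (6.03 to 10.2) and in *Acod1*-/- mice (5.36 to 7.88) than on ND (4.04 to 5.33), and the HFD-fed groups overlapped each other. *Ncf1* went the other way, with HFD-fed WT values of 1.36 to 2.38 below ND values of 2.45 to 3.0 and *Acod1*-/- values of 1.67 to 2.53 overlapping both. *Rac2* in *Acod1*-/- mice (1.35 to 2.46) lay above ND (0.815 to 1.33), and HFD-fed WT values (1.25 to 2.11) overlapped both. This scale divides by a sum of CPM, in which abundant markers weigh most. The log2 fold changes of the single markers with diet ran from -0.99 (*Mertk*) to 3.89 (*Cd68*), beside 2.36 for *Cybb*, so another weighting could give other values. What part macrophage number had in the changes of the members was not tested.

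Fibroblast and progenitor markers, which mark cells in which *Nox4* is known, moved as well. Of 8 such genes, 7 rose with diet in eWAT and 5 fell with genotype, with summed means of 2248, 4965 and 2633 CPM in the 3 groups. Adipocyte markers, by contrast, mostly went against the members in eWAT. With diet 4 of 8 fell and 1, *Lep*, rose (median log2 fold change -0.57), and with genotype 5 rose and 0 fell (median 0.67). Of all genes in eWAT, 26.9% were lower with diet and 9.13% were higher with genotype. *Cfd*, the adipsin gene, had the widest changes of these markers, at -3.41 and 2.57. Their sum was 28419 to 42099.5 CPM on ND, 19422 to 43393 CPM in HFD-fed WT and 35281 to 48574 CPM in *Acod1*-/- mice. Endothelial markers mostly went against the members with diet too: of 6, 4 fell and 0 rose (median log2 fold change -0.72). With genotype 0 of them were called (median 0.22). Of 7 mural cell markers, 4 fell and 1 rose with diet (median -1.46), and 1 fell and 0 rose with genotype (median 0.10). The part of any of these cell types in the changes of *Nox4* was not tested. Neutrophils, the other main bearer of the oxidase, were thinly marked. *Ly6g* had at most 3 counts in every library of the study, and the sum of 10 neutrophil markers stayed between 4.23 and 56.4 CPM in eWAT. In eWAT 3 of the 10 had counts enough to be tested, and they went apart. *S100a8*, an alarmin gene that monocytes also express, rose with diet (log2 fold change 4.05, adjusted p = 0.00107) and was not called with genotype (-1.46, adjusted p = 0.116). *Csf3r*, the receptor gene for granulocyte colony-stimulating factor, rose with diet (1.59, adjusted p = 0.00757) and fell with genotype (-1.06, adjusted p = 0.0767), as the members did. *Ltf*, the lactoferrin gene, fell with diet (-5.03, SE 2.16, adjusted p = 0.0745), though its groups overlapped, and was not called with genotype (2.33, adjusted p = 0.451). The neutrophil marker sum was uneven in ND-fed eWAT, with a median of 6.06 CPM and a highest value of 52.3 CPM. The part of neutrophils in the members' changes was not tested.

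In iWAT, the subcutaneous depot, the members went apart. *Ncf1*, *Ncf4* and *Rac2* were lower in HFD-fed than in ND-fed WT mice, by 2.56-fold, 3.22-fold and 7.32-fold, *Nox4* was 2.55-fold higher, and *Cybb* and *Cyba* passed the test in neither direction. Thus 3 of 6 were lower and 1 was higher, where 24.2% of 14801 genes were lower and 25.9% higher. The members' median log2 fold change was -0.72, beside 0.00 over all genes.

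*Cybb* had 43.7, 52.3 and 31.3 CPM in ND-fed WT iWAT, 49, 34.3, 34.3, 45.2 and 33.7 CPM in HFD-fed WT iWAT, and 27.5, 31.3 and 23.3 CPM in HFD-fed *Acod1*-/- iWAT. The WT groups overlapped, with a log2 fold change of -0.08 and a 95% interval of -0.44 to 0.28 (adjusted p = 0.747). *Cyba* likewise had 48.7, 68.5 and 61.9 CPM on ND and 72.8, 52.5, 39, 76.7 and 42.9 CPM on HFD in WT mice, then 33.7, 36.0 and 27.4 CPM in *Acod1*-/- mice. Its diet difference was -0.05 with an interval of -0.48 to 0.39 (adjusted p = 0.884).

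*Ncf1* had 42.1, 58.5 and 43.3 CPM in ND-fed WT iWAT, 28.6, 12.1, 18.8, 18.4 and 14.0 CPM in HFD-fed WT iWAT, and 14.0, 10.2 and 11.7 CPM in *Acod1*-/- iWAT. The corresponding values of *Ncf4* were 20.7, 29.7 and 20.7 CPM, then 8.75, 4.90, 5.71, 10.8 and 5.81 CPM, then 3.06, 2.84 and 2.91 CPM. For both genes the ND-fed libraries lay above all HFD-fed ones (diet log2 fold changes -1.36, SE 0.24, adjusted p = 0.00140, and -1.69, SE 0.25, adjusted p = 5.75e-04). *Rac2* reached 97.0, 158 and 115 CPM on ND, its highest levels in the study, against 13.4, 10.2, 11.6, 19.3 and 27.7 CPM in HFD-fed WT and 9.34, 6.72 and 7.18 CPM in *Acod1*-/- iWAT. Its diet log2 fold change was -2.87 (SE 0.30, adjusted p = 1.18e-04), the widest of the members in either depot.

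*Nox4* went the other way, at 5.27, 2.22 and 2.25 CPM on ND and 8.40, 8.69, 6.07, 9.33 and 7.93 CPM on HFD in WT iWAT. The WT groups did not overlap, and the log2 fold change was 1.35 (SE 0.49, adjusted p = 0.0452). This call was lost without ND-fed library 2 or 3 (adjusted p = 0.158 and 0.150) and with the header range as a term (0.101). *Nox4* in *Acod1*-/- iWAT was uneven, at 10.8, 1.99 and 8.47 CPM, and the low library 2 is 1 of the 2 labelled with a later time. With diet in iWAT, 7 of 8 fibroblast and progenitor markers rose and 0 fell (median log2 fold change 1.34). Of 8 adipocyte markers 4 rose and 1 fell (0.45), of 6 endothelial markers 5 rose and 0 fell (0.75), and of 7 mural cell markers 3 rose and 0 fell (0.20). Their part in the rise of *Nox4* was not tested.

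The same lymphocyte markers that were scarce elsewhere were abundant in ND-fed iWAT. The sum of 10 B cell, T cell and natural killer cell markers was 629, 979 and 721 CPM there, against 8.47 to 99.0 CPM in HFD-fed WT iWAT, 4.76 to 17.7 CPM in *Acod1*-/- iWAT and 6.75 to 46.1 CPM in eWAT. All 10 fell with diet in iWAT, at a median log2 fold change of -4.57, and none was at or under 3 counts throughout a group. The order of the 3 ND-fed libraries in this sum was also their order in *Rac2*, and HFD-fed WT library 5, with 99.0 CPM of lymphocyte markers, had the highest *Rac2* of its group. Macrophage markers moved otherwise: 7 of 10 rose with diet in iWAT, and their sum ranged from 485 to 596 CPM on ND and from 508 to 1264 CPM on HFD in WT mice. Against 100 CPM of these markers, *Rac2* stood at 23.3 ± 3.44 CPM on ND (SD, n = 3) and at 2.31 ± 1.76 CPM on HFD (n = 5) in WT iWAT, *Ncf1* at 9.10 ± 0.654 and 2.31 ± 0.583 CPM, and *Ncf4* at 4.48 ± 0.431 and 0.887 ± 0.146 CPM, none with overlap between the diets. *Cyba* did not overlap on this scale either, at 11.4 ± 1.44 CPM on ND (9.88 to 12.7) and 7.09 ± 1.35 CPM on HFD (5.49 to 8.45). *Cybb*, per 100 CPM of macrophage markers, was 8.03 ± 1.37 CPM on ND and 5.05 ± 1.12 CPM on HFD, with ranges that overlapped at 6.44 to 6.63, and *Nox4* overlapped as well (0.634 ± 0.378 and 1.07 ± 0.379 CPM). What part lymphocytes had in the iWAT levels of *Rac2*, *Ncf1* and *Ncf4* was not tested, and all 3 ND-fed libraries carried lymphocyte markers, so no comparison without them could be made. Neutrophil markers summed to 10.1 to 29.4 CPM on ND and 7.57 to 23.5 CPM on HFD in WT iWAT. Of 10, 4 were tested there. With diet *S100a8* rose (log2 fold change 3.36), *Cxcr2* and *Ltf* fell (-6.18 and -5.53, the groups overlapping for *Ltf*), and *Csf3r* was not called (-0.19). The part of neutrophils was not tested either.

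**Figure D2:**
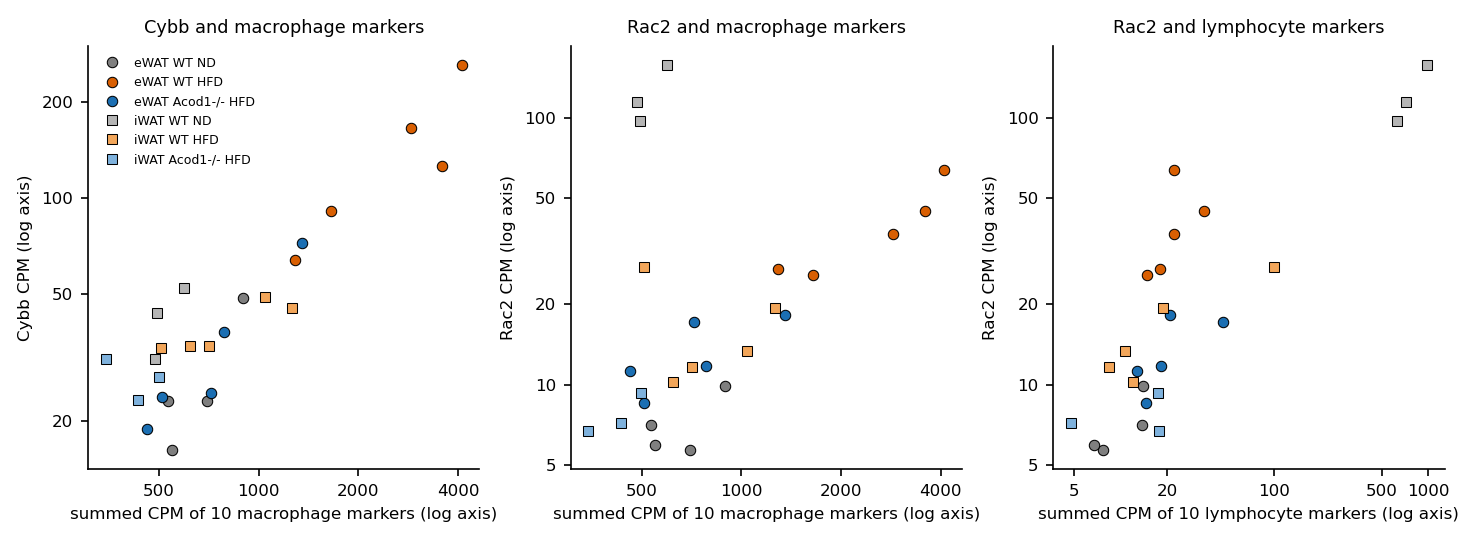
*Cybb* or *Rac2* CPM (vertical, log axes) against the summed CPM of 10 macrophage or 10 lymphocyte markers (horizontal, log axes), 1 point per library, with circles for eWAT and squares for iWAT. The 3 ND-fed iWAT libraries had *Rac2* of 97.0 to 158 CPM at macrophage sums of 485 to 596 CPM and lymphocyte sums of 629 to 979 CPM.

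*Acod1* loss in HFD-fed iWAT gave no call. Of 6 members 0 passed, as did 0 of 14801 genes (0%) in edgeR's test, in which the smallest adjusted p of any gene was 0.108. All 6 members were below WT in the fit, by log2 values of -0.55 (*Cybb*), -0.84 (*Cyba*), -0.64 (*Ncf1*), -1.31 (*Ncf4*), -1.11 (*Rac2*) and -0.21 (*Nox4*). Unadjusted p was under 0.05 for 5 of the 6, and for 1062 genes higher and 1406 lower among all tested, and DESeq2's Wald test called 1072 genes. The libraries of *Cybb*, *Cyba*, *Ncf4* and *Rac2* did not overlap, all *Acod1*-/- values lying below all WT values, which was so of 4.60% of all genes. *Ncf4* came nearest to a call (SE 0.28, adjusted p = 0.136, 95% interval -1.86 to -0.77). Its adjusted p was 0.0453 without *Acod1*-/- library 3 and 0.0875 without HFD-fed WT library 5. DESeq2 called 3 members lower: *Ncf4* (adjusted p = 0.00188), *Rac2* (0.0222) and *Cyba* (0.0284). Cell markers moved here too, with 0 called by edgeR. Of 10 macrophage markers 2 had a positive log2 fold change with genotype, and the median was -0.98. Of 10 lymphocyte markers 0 had a positive one, at a median of -1.02. The median of the members was -0.74, and that of 8 adipocyte markers was 0.07. The part of these cell types in the members' values was not tested.

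Against ND-fed WT iWAT, HFD-fed *Acod1*-/- iWAT was lower in 5 of 6 members, where 16.1% of all genes were lower. *Rac2* was 15.8-fold lower (log2 fold change -3.99, SE 0.39, adjusted p = 9.64e-05), *Ncf4* 8.02-fold (adjusted p = 1.32e-04) and *Ncf1* 3.98-fold (adjusted p = 7.22e-04). *Cyba* was 1.84-fold lower (adjusted p = 0.0256) and *Cybb* 1.54-fold (adjusted p = 0.0433). The call of *Cybb* was lost without ND-fed library 2 or without *Acod1*-/- library 1 or 3 (adjusted p 0.105 to 0.174). *Nox4* lay the other way and was not called by edgeR (log2 fold change 1.15, 95% interval 0.12 to 2.17, adjusted p = 0.131). DESeq2 called it higher (1.14, adjusted p = 0.0790), as did edgeR without *Acod1*-/- library 2 (1.58, adjusted p = 0.0109) or without ND-fed library 1 (1.67, adjusted p = 0.0574).

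**Figure D3:**
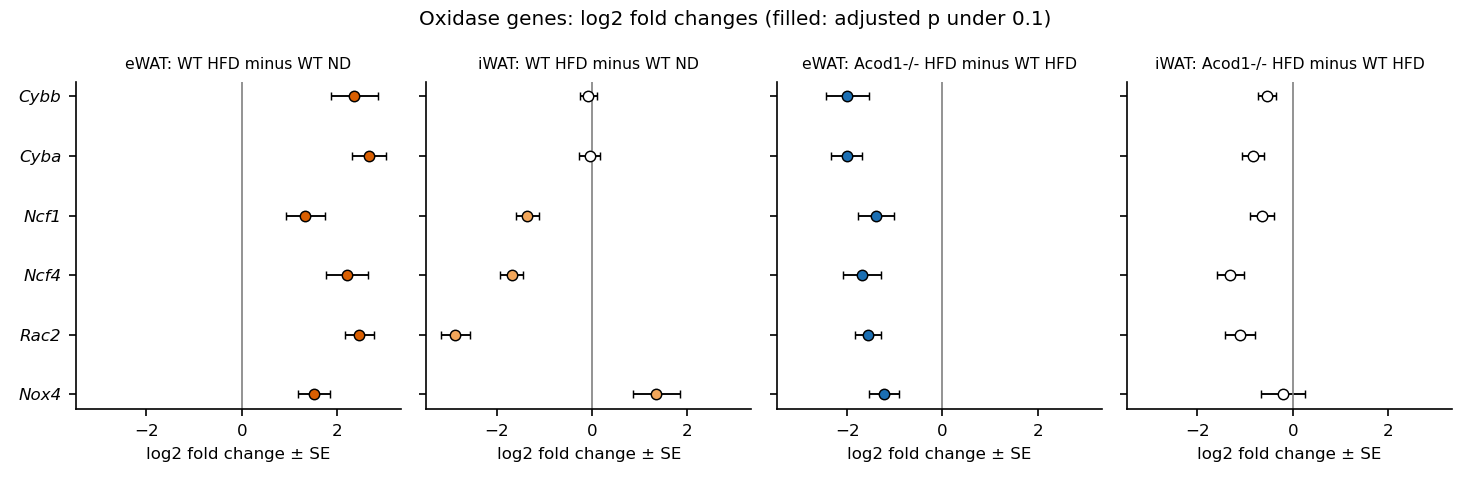
Log2 fold changes of the 6 genes (points) with their standard errors (bars) for diet in WT mice and for genotype on HFD, in eWAT and iWAT; filled points had an adjusted p under 0.1. All 12 eWAT points are filled, diet points at 1.33 to 2.67 and genotype points at -2.01 to -1.23, and no iWAT genotype point is.

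The depots were next compared directly, in a fit of all 25 libraries. On ND, 4 members were higher in iWAT than in eWAT of WT mice, where 14.2% of 15034 genes were higher. *Rac2* led with a 17.2-fold difference (log2 4.11, SE 0.36, adjusted p = 1.87e-07), followed by *Ncf4* (2.36, SE 0.41, adjusted p = 2.92e-04) and *Ncf1* (1.40, SE 0.40, adjusted p = 0.0135). *Cyba* was 1.89-fold higher (adjusted p = 0.0518), a call lost without ND-fed eWAT library 2, 3 or 4 or ND-fed iWAT library 2 or 3 (adjusted p 0.104 to 0.172). The ND-fed iWAT libraries are those with the lymphocyte markers given above.

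On HFD the order turned, and 5 members were lower in iWAT than in eWAT of WT mice, where 10.8% of all genes were lower. *Cybb* was 3.61-fold lower in iWAT (adjusted p = 0.00279), *Cyba* 3.54-fold (4.91e-04), *Ncf4* 2.96-fold (0.00517), *Ncf1* 2.48-fold (0.0138) and *Rac2* 2.4-fold (0.00575). *Nox4* differed by 0.06 on the log2 scale, with a 95% interval of -0.66 to 0.77 (adjusted p = 0.940). Macrophage markers moved with this difference, as 9 of 10 were lower in iWAT and none was higher, at a median log2 difference of -1.71 beside -1.44 for the members, and their part in it was not tested. In HFD-fed *Acod1*-/- mice 0 members were called between the depots by edgeR's test, 3 having an unadjusted p under 0.05, against 3.81% of all genes called. DESeq2 called 1 there, *Ncf4*, lower in iWAT (adjusted p = 0.0724).

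The diet effect itself differed between depots for 5 members, all lower in iWAT, where 14.0% of genes differed in that direction. The difference in log2 fold change, iWAT minus eWAT, was -5.37 for *Rac2* (SE 0.46, adjusted p = 4.14e-07), -3.93 for *Ncf4* (SE 0.54, adjusted p = 3.15e-05), -2.74 for *Cyba* (SE 0.44, adjusted p = 1.75e-04), -2.71 for *Ncf1* (SE 0.52, adjusted p = 9.27e-04) and -2.47 for *Cybb* (SE 0.57, adjusted p = 0.00369). For *Nox4* it was -0.19, with an interval of -1.32 to 0.93 (adjusted p = 0.845). Of the 10 macrophage markers, 3 differed in the same direction (*Lyz2*, *Cd68* and *Fcgr1*, -2.02 to -1.84), and the median of all 10 was -0.98. The genotype effect was called different between depots in 0 members by edgeR's test and by DESeq2, and edgeR called 0.00665% of all genes. *Cybb* (1.47, 95% interval 0.40 to 2.55, adjusted p = 0.382) and *Cyba* (1.2, interval 0.36 to 2.04, adjusted p = 0.371) had an unadjusted p under 0.05, and both were called without *Acod1*-/- eWAT library 5 (adjusted p = 0.0925 and 0.0919). The calls for genotype in eWAT and their lack in iWAT were thus not shown to differ between the depots.

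Read as an order of mean levels over the 6 groups, *Cybb* (142 CPM) and *Cyba* (201 CPM) were highest in HFD-fed WT eWAT, apart from every other group except for *Cybb*, where 1 *Acod1*-/- eWAT library reached into its range. Below it, *Cybb* means ran from 42.4 CPM in ND-fed iWAT to 27.4 CPM in *Acod1*-/- iWAT, each group overlapping the one above. *Ncf1* (48 CPM), *Ncf4* (23.7 CPM) and *Rac2* (123 CPM) were highest in ND-fed iWAT, with HFD-fed WT eWAT next at 45.6, 21.3 and 39.5 CPM. In this pair of groups the *Rac2* libraries did not overlap, and those of *Ncf1* and *Ncf4* did. *Nox4* was at 8.09 and 7.76 CPM in the HFD-fed WT groups of iWAT and eWAT, 7.10 CPM in *Acod1*-/- iWAT, and 2.72 to 3.31 CPM in the other 3.

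Levels of different genes were compared per transcript length, as FPKM (fragments per kilobase of transcript per 1000000 counted reads). *Cyba* was the most abundant member on this scale in every group, with group means from 30.1 to 199 FPKM, and exceeded *Cybb* by 6.62-fold to 8.55-fold on average. *Nox4* was the least abundant, at group means of 0.336 to 0.940 FPKM. The FPKM ratio of *Cybb* to *Nox4* was 25.9 ± 10.6 in HFD-fed WT eWAT (SD, n = 5) and 7.15 ± 1.22 in HFD-fed WT iWAT (n = 5), and did not overlap between them. *Rac2* stood at 5.56 ± 1.36 times *Cybb* in ND-fed iWAT (n = 3) and at means of 0.527 to 0.833 times *Cybb* in the other 5 groups. *Ncf4* was likewise at 1.63 ± 0.273 times *Cybb* in ND-fed iWAT, against 0.314 to 0.560 elsewhere.

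**Figure D4:**
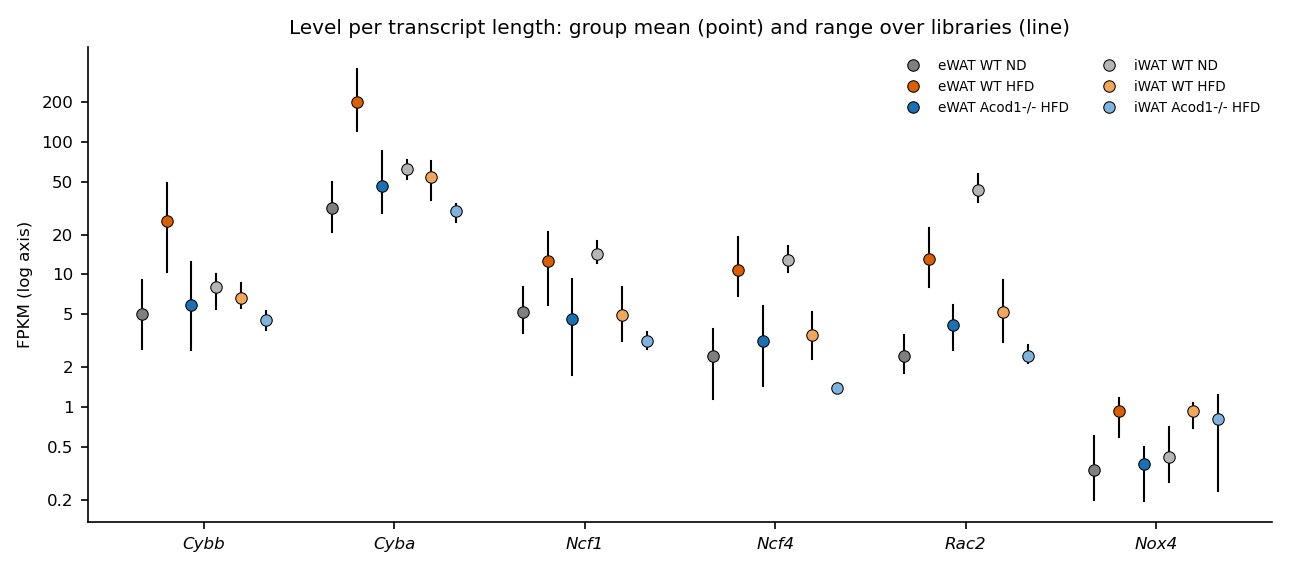
FPKM (log axis) of the 6 genes, with points for group means and lines from the lowest to the highest library of each group. *Cyba* lies above the other genes in every group, *Nox4* below 1 FPKM in every group mean, and ND-fed iWAT stands out for *Rac2*.

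Over the 25 libraries, which share the 6 groups, *Cybb* and *Cyba* ran together most closely of the 15 pairs of members (Pearson's r of log2 CPM 0.96, and 0.89 for deviations from group means). *Ncf1* and *Ncf4* followed at 0.92 and *Ncf4* and *Rac2* at 0.90, while *Cybb* and *Rac2* had an r of 0.57. *Nox4* had an r of 0.15 to 0.48 with the other members. Nearest to *Cybb* among genes of at least 5 CPM were *Cd84*, a SLAM family receptor (0.97), *Myo1f*, a myosin of white blood cells (0.96), and *Clec7a*, the beta-glucan receptor dectin-1 (0.96). *Cyba* was nearest to *Cotl1*, *Clic1* and *Rgs10* (0.98 each), *Ncf1* to the kinase gene *Syk* (0.98), *Nfatc2* (0.95) and *Laptm5* (0.94), and *Ncf4* to *Cd53*, *Selplg* and *Dock2* (0.97 each). *Rac2* was nearest to *Coro1a*, which encodes an actin-binding protein of white blood cells (0.98), and to the B cell genes *Tnfrsf13b* and *Pou2f2* (0.96 each). *Nox4* was nearest to *Snx9* (0.84), *Pcolce*, which aids collagen maturation (0.84), and *Fap*, a fibroblast protease gene (0.83). For deviations from group means, r with *Nox4* was lower, at 0.70 (*Snx9*), 0.54 (*Pcolce*) and 0.56 (*Fap*). With *Rac2* it was 0.87 (*Coro1a*) and 0.77 (*Tnfrsf13b* and *Pou2f2* each). For the nearest genes of the other members it was 0.85 to 0.96.

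Of 11 further genes whose products bind, switch or support the oxidase, 9 rose with diet and 7 fell with genotype in eWAT, at median log2 fold changes of 0.75 and -1.08. In iWAT 8 fell and 1 rose with diet. *Cybc1*, which encodes the chaperone of the gp91phox and p22phox pair, rose with diet (log2 fold change 0.66) and fell with genotype (-0.62) in eWAT, and fell with diet in iWAT (-0.96). *Hvcn1*, the proton channel that offsets the charge the oxidase moves, was not called in eWAT (0.46 and -0.31) and fell by 3.02 on the log2 scale with diet in iWAT (adjusted p = 5.59e-05).

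The exchange factors that load Rac with GTP, *Vav1*, *Prex1* and *Dock2*, rose with diet in eWAT (2.14, 1.37 and 2.47), fell with genotype there (-2.12, -1.73 and -1.89) and fell with diet in iWAT (-2.50, -1.73 and -1.43). The protein kinase C genes *Prkcb* and *Prkcd*, whose products phosphorylate p47phox, did the same (eWAT diet 2.26 and 0.75, eWAT genotype -1.35 and -1.21, iWAT diet -1.88 and -1.02). So did *Arhgdib*, which encodes a GDP dissociation inhibitor of blood cells (1.5, -1.08 and -1.62). The widely expressed *Rac1* rose with diet in both depots (0.41 and 0.49), *Rap1a* rose in eWAT (0.23), and *Poldip2*, known as a partner of NOX4, was not called (0.08 in eWAT, 0.17 in iWAT). With genotype in iWAT 0 of 11 were called by edgeR, 4 having an unadjusted p under 0.05 and 4 being called by DESeq2, at a median log2 fold change of -0.33.

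**Figure D5:**
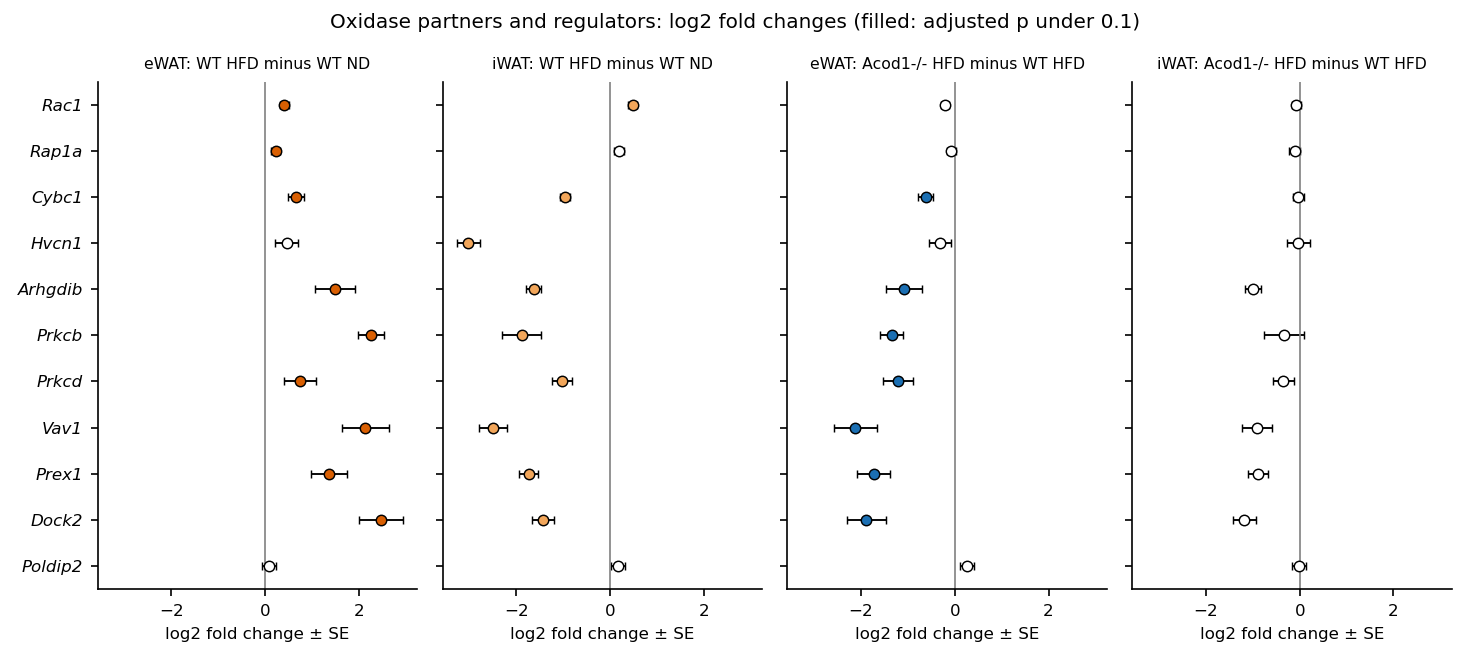
Log2 fold changes (points) with standard errors (bars) of 11 oxidase partners and regulators for diet in WT mice and genotype on HFD in eWAT and iWAT; filled points had an adjusted p under 0.1. *Vav1* and *Dock2* lie at 2.14 and 2.47 for diet and at -2.12 and -1.89 for genotype in eWAT, and *Poldip2* is open in all 4 panels.

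Of 3 transcription factor genes known to drive the phagocyte subunits, *Spi1* (PU.1) rose with diet in eWAT (log2 fold change 3.12, SE 0.53, adjusted p = 8.69e-04) and fell with genotype (-2.38, SE 0.47, adjusted p = 0.0118). *Irf8* did so too (2.15 and -1.57) and fell with diet in iWAT (-1.73, adjusted p = 9.43e-05), where *Spi1* was at 0.12 (adjusted p = 0.673). *Irf1* was not called in eWAT and fell with diet in iWAT (-0.70, adjusted p = 0.00333). Of 8 other genes of the oxidase family, 3 passed the filter on low counts. *Duoxa1*, the maturation factor of a dual oxidase, rose with diet in eWAT (2.76, adjusted p = 0.00110) and iWAT (3.64, adjusted p = 8.48e-04), *Duox1* rose in both (1.55 and 1.75), and *Noxo1* fell in both (-0.98 and -1.0).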

How the data were processed

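RNA was sequenced from 25 samples of whole fat, with NEBNext Ultra II Directional mRNA libraries. The authors trimmed reads with cutadapt, removed contaminants and aligned to GRCm38 with STAR (2.4.2a), and deposited counts of reads per gene with FPKM values (recomputed from counts and cDNA length to within 0.0005) and classes of uncounted reads. Reads on no feature were 6.41% to 11.88%, and ambiguous ones 1.52% to 2.07%. The counting program is not given in the sources used here. Symbols were joined for 54723 gene IDs, and 29 had none.

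Counts were fitted in R 4.3.3 with edgeR 4.0.16 (quasi-likelihood, TMM), on genes that averaged 1 CPM or more, over the 3 groups of a depot or, for depot comparisons, over all 25 libraries. P-values were adjusted (Benjamini-Hochberg) over all genes tested, and intervals cover 95% by the standard error. CPM used TMM sizes over all libraries, save in the filter, which used counted reads alone. The fit was tested on simulated data. DESeq2 1.42.0, other filters and sizes, the threshold of 0.05, the header range, the replicate number and leaving out each library were alternatives. The restriction to the first header range was chosen after seeing the data. No libraries of a group were copies (lowest chi-square per degree of freedom 37.5).

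The members and gene lists were chosen with earlier results of these data known. Named were the members, the 11 oxidase partners, up to 4 genes of each other list with the smallest adjusted p per depot comparison, the 3 genes nearest to each member, and marker genes beside their list. One further gene is not reported here. Within a depot, libraries were taken as separate mice. The sources used here do not say whether eWAT and iWAT libraries share mice, and the fits over both depots treated all libraries as independent.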

Additional observations from a re-analysis of the deposited data

Results flagged for a closer look

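In 1 of 24 groups of members' CPM of 4 or 5 libraries, a library stood far from the rest: *Cyba* was at 87.8 CPM in HFD-fed *Acod1*-/- eWAT library 5, against 36.4 to 49.1 CPM in the other 4. Chance would be expected to single out about 1 in 20 such groups. The same library had the highest macrophage marker sum of its group (1349.6 CPM), and without it *Cyba* remained lower with genotype. The response to diet differed between depots, iWAT minus eWAT on the log2 scale, for *Cybb* (-2.47), *Cyba* (-2.74), *Ncf1* (-2.71), *Ncf4* (-3.93) and *Rac2* (-5.37). Summed lymphocyte markers, at 629 to 979 CPM in ND-fed iWAT and at 99.0 CPM or less in the other libraries, moved with this difference. So did macrophage markers, whose sum in WT eWAT was 533 to 894 CPM on ND and 1286 to 4098 CPM on HFD, and in WT iWAT 485 to 596 CPM and 508 to 1264 CPM. The part of either in it was not tested.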

How the results depend on the processing

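Over all alternatives, 1720 of 1758 values of the members kept their direction and side of the threshold, 17 lost a call, 21 gained one and 0 called values reversed. All 6 members kept their calls for diet and for genotype in eWAT in every alternative run. For HFD-fed *Acod1*-/- against ND-fed WT eWAT, the count of members called went from 1 to 0 with the header range as a term and at an adjusted p under 0.05, and ranged from 0 to 1 when libraries were left out. For genotype in iWAT it went from 0 to 1 with no filter, 1 with at least 1 CPM in every library, 1 within the first header range and 3 with DESeq2, and from 0 to 1 when libraries were left out. For depots in HFD-fed *Acod1*-/- mice it went from 0 to 1 with DESeq2 and from 0 to 1 with libraries left out (*Ncf4* without *Acod1*-/- eWAT library 3, *Nox4* without *Acod1*-/- iWAT library 2). For genotype by depot it went from 0 to 2 within the first header range, and from 0 to 2 with libraries left out. The cause was not tested.

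Replicate numbers were not taken to pair the samples, since in no set did every same-numbered pair of libraries deviate together. The correlation was over 0.1 in 4 of 11 pairs across depots (-0.09 to 0.49), in 9 of 13 across groups in eWAT (-0.28 to 0.26, among them 4 of the 5 of HFD-fed WT with *Acod1*-/- mice) and in 3 of 9 across groups in iWAT (-0.30 to 0.31). As an alternative, the replicate number was a block in the fits of a single depot. In the fits over both depots, same-numbered eWAT and iWAT libraries of a condition shared a block, as if from the same mouse. With these blocks, genotype by depot had 3 members called in place of 0 (*Cybb*, *Cyba* and *Ncf1*, adjusted p 0.0293 to 0.0795). No other count of members moved by over 1.5 times.

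Over all genes, the count called moved by over 1.5 times in 9 of 11 comparisons. Diet in eWAT went from 7730 to 5139 with the header range as a term. Genotype in eWAT went from 2976 to 1717 at an adjusted p under 0.05, 1709 and 1849 without HFD-fed WT library 1 or 4, and 1832 and 1894 without *Acod1*-/- library 3 or 4. HFD-fed *Acod1*-/- against ND-fed WT eWAT went from 3953 to 1048 with the header range as a term, 2358 at an adjusted p under 0.05, 2530 without ND-fed library 2 and 2626 without *Acod1*-/- library 2. Genotype in iWAT went from 0 to 77 with no filter, 91 with at least 1 CPM in every library, 5 with DESeq2's size factors, 1072 with DESeq2, 4 with the header range as a term, 2157 within the first range, 210 without HFD-fed WT library 5 and 2664 without *Acod1*-/- library 3. HFD-fed *Acod1*-/- against ND-fed WT iWAT went from 5126 to 3274 with only these groups fitted and 3293 without ND-fed library 2. Depots on ND went from 4772 to 2931 without ND-fed iWAT library 2, and depots in HFD-fed WT mice from 2791 to 1672 without eWAT library 1. Depots in *Acod1*-/- mice went from 573 to 73 with only these groups fitted, 248 with at least 1 CPM in every library, 305 at an adjusted p under 0.05, 892 with DESeq2, 355 without eWAT library 4, and 165 and 1033 without iWAT library 2 or 3. Genotype by depot went from 1 to 0 with only these groups fitted, 96 with DESeq2, 484 with the replicate block, 501 within the first range, 2 and 224 without *Acod1*-/- eWAT library 3 or 5, and 51 and 391 without *Acod1*-/- iWAT library 1 or 3. ND and the second range coincide save for 4 HFD libraries, 1 of WT and 1 of *Acod1*-/- mice in each depot. Diet rests on those of the depot where the range is a term.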

Other observations

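Of 15 genes whose products remove superoxide and peroxide, 7 were higher and 2 lower with diet in eWAT, and 9 were higher and 2 lower with diet in iWAT, beside 24.8% and 25.9% of all genes higher. *Prdx4*, a peroxiredoxin of the endoplasmic reticulum, rose in both depots (log2 fold change 1.18, adjusted p = 2.82e-04 in eWAT, and 1.29, adjusted p = 1.57e-04 in iWAT). *Gpx7* (1.23 and 1.85) and *Prdx5* (0.97 and 1.22) rose in both as well, *Gpx3*, the secreted glutathione peroxidase, fell in both (-1.60 and -1.43), and *Prdx6* rose in iWAT (1.26, adjusted p = 1.74e-04). With genotype in eWAT, where all 6 oxidase genes fell, edgeR called 1 of the 15, *Prdx4* (-0.45, adjusted p = 0.0565), beside 19.9% of all genes. Of the 15, 3 had an unadjusted p under 0.05 in edgeR's test and 2 were called by DESeq2. Their median log2 fold change was -0.01.

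Of 4 enzymes that supply NADPH, the substrate of the oxidase, *G6pdx* rose with diet in eWAT (0.50, adjusted p = 0.0403) and iWAT (1.32, adjusted p = 4.31e-04), as did *Idh1* (0.70 and 0.85). *Pgd* rose in iWAT (0.62, adjusted p = 0.0548) and *Me1* was not called in either depot (-0.15 and 0.38). With genotype in eWAT 0 of the 4 were called by edgeR (adjusted p 0.551 to 0.740) or by DESeq2, and 0 had an unadjusted p under 0.05.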
